A study of Homo sapiens with 24 samples.

Results

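The 9 genes described here encode prostate surface antigens and secreted proteins of the prostate epithelium, and were chosen by symbol: ACPP, FOLH1, SLC45A3, STEAP1, STEAP2, STEAP4, AZGP1, PSCA and MSMB. All 9 were present among the 22227 genes of the ligand experiment and the 23028 genes of the siRNA experiment, and all 9 passed the filter on low values in each. STEAP4 did so in the ligand experiment only through the libraries treated with dihydrotestosterone (DHT), and MSMB also needed DHT libraries to pass there.

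Both experiments used LNCaP, an androgen-responsive prostate adenocarcinoma cell line, kept for 3 days in phenol red-free medium with charcoal-stripped serum, which is poor in steroids, before treatment. In the ligand experiment, cells received vehicle, 10 nM DHT for 4 h or 24 h, or 10 μM enzalutamide (ENZ, an antiandrogen) for 4 h or 24 h, with 2 libraries per condition. The labels give no treatment time for this vehicle, so ligand and time in culture cannot be told apart in comparisons with it. In the siRNA experiment, cells were transfected with a pool of GATA2 siRNAs (siGATA2) or a non-targeting pool (siControl) and, 72 h later, received vehicle or 25 μM ENZ for 24 h, with 3 libraries per condition. All libraries were poly(A) RNA of 1 cell line, so levels describe LNCaP cells and not prostate tissue, and p-values measure the spread between these libraries. The labels call the ligand libraries biological replicates and do not say whether those of each siRNA condition came from separate cultures, so their spread may be technical. In such bulk samples, fewer cells that express a gene and less RNA per cell cannot be told apart.

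DHT is a potent androgen, and androgen signalling acts on DNA at androgen response elements and controls much of the secretory programme of luminal prostate cells. GATA2 is a zinc finger transcription factor that binds GATA motifs and takes part in androgen signalling in these cells. FOLH1 encodes prostate-specific membrane antigen, a glutamate carboxypeptidase at the cell surface and a target of imaging and radioligand therapy. STEAP1, STEAP2 and STEAP4 are six-transmembrane proteins of the metalloreductase family, SLC45A3 (prostein) is a solute carrier of prostate epithelium, and PSCA is a GPI-anchored surface antigen. ACPP encodes prostatic acid phosphatase, AZGP1 encodes zinc-alpha-2-glycoprotein, and MSMB encodes beta-microseminoprotein, 3 proteins that the prostate secretes.

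In the GENCODE annotation of GRCh38, SLC45A3 occupies chr1:205657851-205680459 on the minus strand, ACPP chr3:132317367-132368298 on the plus strand, FOLH1 chr11:49146635-49208670 on the minus strand and MSMB chr10:46033307-46046269 on the minus strand. Chromosome 7 carries STEAP4 (chr7:88270892-88306891, minus strand), STEAP1 (chr7:90154375-90164829, plus strand), STEAP2 (chr7:90167590-90238137, plus strand) and AZGP1 (chr7:99966720-99976157, minus strand). STEAP1 ends 2.76 kb before STEAP2 begins, with both on the same strand, while STEAP4 lies 1.85 Mb away. The deposited tables carry symbols only and were made on hg19, so these GRCh38 positions describe the genes and were not used for any value.

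RefSeq promoters (GRCh38.p14, 250 bases before to 50 after a start) were matched for 6 of the 9 genes, giving 7 promoters. The stretches before the start, without annotated exons, are shown for 3 genes that rose with DHT (SLC45A3, STEAP4, AZGP1) and for 2 that fell (ACPP, STEAP2), since these responses separate the 9 genes. They are written 5′ to 3′ on the strand of the gene, at chr1:205680510-205680759 (minus) for SLC45A3, chr7:88306895-88307144 (minus) for STEAP4, chr7:99976158-99976281 (minus) for AZGP1, chr3:132317157-132317366 (plus) for ACPP and chr7:90213570-90213819 (plus) for the downstream start of STEAP2. Capitals mark matches to the motifs named after them.
SLC45A3: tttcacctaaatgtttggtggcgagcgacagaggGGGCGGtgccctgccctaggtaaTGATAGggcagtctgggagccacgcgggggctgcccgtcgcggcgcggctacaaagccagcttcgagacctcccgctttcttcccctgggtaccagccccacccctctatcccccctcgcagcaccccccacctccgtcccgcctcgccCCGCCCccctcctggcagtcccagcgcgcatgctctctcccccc
STEAP4: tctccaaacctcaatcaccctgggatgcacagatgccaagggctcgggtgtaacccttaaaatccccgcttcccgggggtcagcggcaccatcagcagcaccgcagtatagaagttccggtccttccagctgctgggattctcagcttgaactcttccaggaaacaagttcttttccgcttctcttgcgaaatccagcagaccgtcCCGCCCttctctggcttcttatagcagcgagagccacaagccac
AZGP1: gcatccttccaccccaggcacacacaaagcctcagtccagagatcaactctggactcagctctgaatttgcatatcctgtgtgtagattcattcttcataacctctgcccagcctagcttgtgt
ACPP: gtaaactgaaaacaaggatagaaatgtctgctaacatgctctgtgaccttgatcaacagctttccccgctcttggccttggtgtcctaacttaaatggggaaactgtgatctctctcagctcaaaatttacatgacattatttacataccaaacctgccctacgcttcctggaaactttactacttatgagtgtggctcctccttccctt
STEAP2: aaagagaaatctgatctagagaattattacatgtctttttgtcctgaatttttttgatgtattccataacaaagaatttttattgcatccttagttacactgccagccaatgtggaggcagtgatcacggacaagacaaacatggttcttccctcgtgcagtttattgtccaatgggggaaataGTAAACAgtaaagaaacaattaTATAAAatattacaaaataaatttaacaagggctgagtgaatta

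The motifs were searched on both strands of all 300 bases of each promoter. The full androgen response element, an inverted repeat of AGAACA with any 3 bases between the arms, was in 1 of 35116 RefSeq promoters (0.00285%) and in none of the 7. Its AGAACA arm, which the full site contains, was in 14.8% of all promoters and in none of the 7. A GATA motif (the letters GATA with A or T before and A or G after) was in 8769 of the 35116 promoters, and among the 7 it was found in SLC45A3, as TGATAG starting 193 bases before the start (-193). The GC box GGGCGG (45.0% of all promoters) was found in SLC45A3, STEAP4 and the upstream promoter of STEAP2. The downstream promoter of STEAP2 held a forkhead motif TGTTTAC (3.42% of all promoters) on the minus strand and a TATA box TATAAA (11.5% of all promoters). A match is a stretch of letters and not an observed binding event.

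Ligand libraries held about 38900000 to 60000000 estimated counts, and the siRNA libraries about 58800000 to 76800000 reads, as estimated from the steps between weak values. Luminal markers were present throughout, with KRT8 at 320 to 462 CPM (counts scaled to 1000000 per library) and HOXB13 at 428 to 545 CPM, while the basal keratin KRT5 was at 0 in 6 of 10 libraries and reached 0.0366 CPM, and the leukocyte marker CD3E was at 0 in 9 of 10. Of the 17 markers of other cell types, 6 were above 0 in all 10 ligand libraries: COL1A1 (14.4 to 28.5 CPM), VIM (8.07 to 12.8 CPM), ENO2 (40.1 to 61.5 CPM), VWF (8.45 to 21.4 CPM), SYP (0.838 to 1.66 CPM) and TP63 (0.0165 to 0.165 CPM). The other 11 were at 0 in at least 1 library, and the highest of their values was 0.408 CPM, for the basal keratin KRT14. GATA2 was lower in every siGATA2 library (at most 64.7 RPKM) than in any siControl library (at least 77.0 RPKM). A two-sided exact permutation test of 6 against 6 libraries, vehicle and ENZ pooled, gave p = 0.00216, the lowest it can give. The decrease was partial. Mean GATA2 was 82.3 RPKM in siControl and 51.4 RPKM in siGATA2 cells with vehicle, and 129 and 62.1 RPKM under ENZ. The labels list 4 vehicle samples, while the vehicle columns carry replicate number 1 in 3 cases and 2 in 1, and vehicle replicate 1 is here the sum of the 3 columns with the same number. They differed from each other less than from replicate 2, with mean chi-square values per gene of 1.53 to 1.56 against 3.56 to 3.74. Column names also carry a prefix, ZC1, ZC2 or ZC3, whose meaning is not stated. Both DHT 4 h libraries carry ZC1, both ENZ 4 h libraries ZC2 and both ENZ 24 h libraries ZC3, while the DHT 24 h libraries carry ZC2 and ZC3. For DHT as for ENZ, the 4 h and 24 h libraries share no prefix, so treatment time and prefix cannot be told apart.

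**Figure D1:**
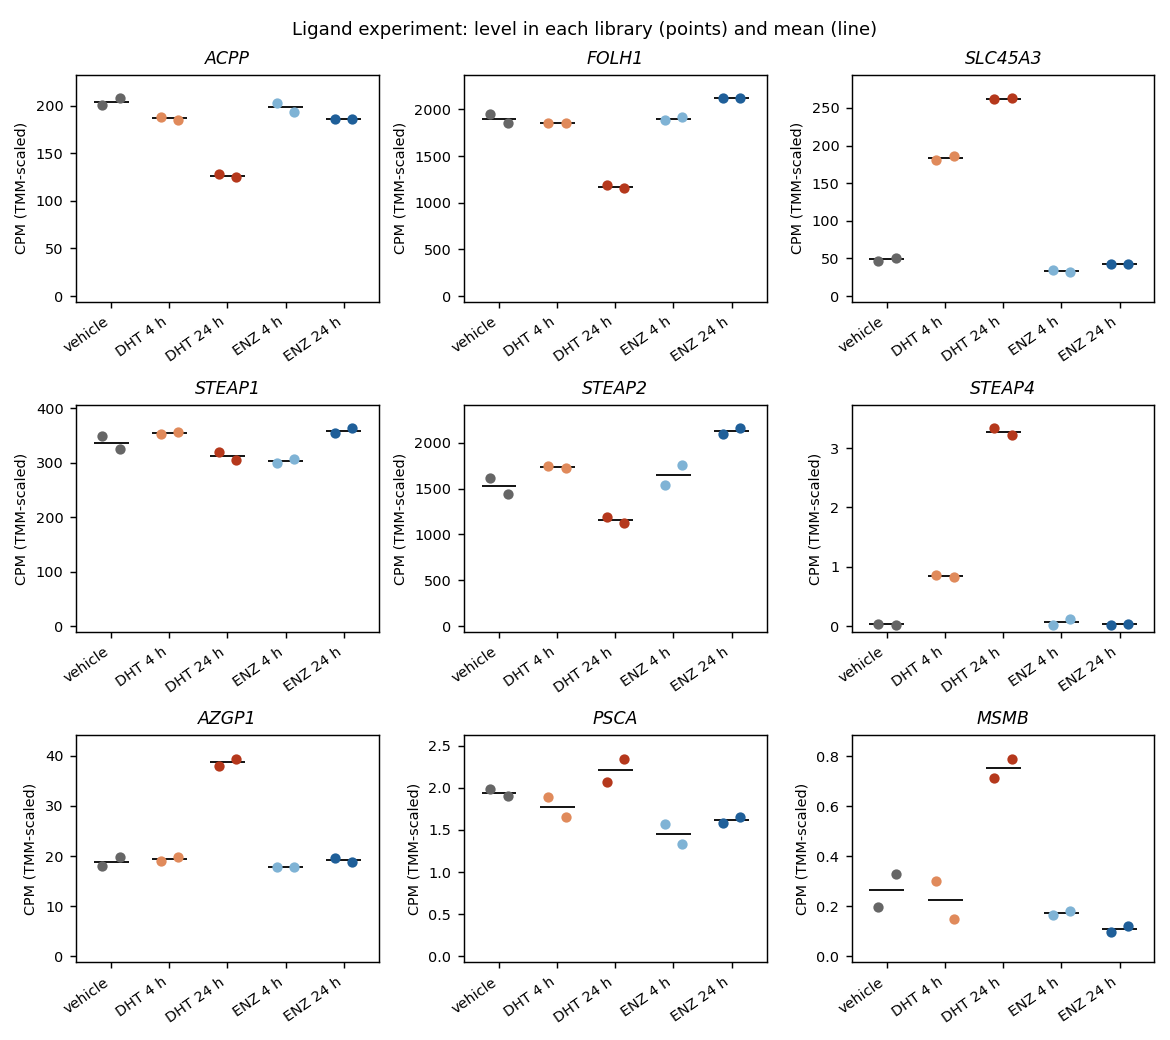
Level of each of the 9 genes in the ligand experiment, in TMM-scaled CPM on a linear axis for each gene, with 1 point per library, 2 libraries per condition and a line at the mean. SLC45A3 and STEAP4 were higher in all 4 DHT libraries than in any other library, AZGP1 and MSMB in the 2 libraries of 24 h of DHT, and ACPP and FOLH1 were lowest in those 2 libraries.

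After 24 h of DHT the 9 genes moved in opposite directions: SLC45A3, STEAP4, AZGP1 and MSMB rose, and ACPP, FOLH1, STEAP1 and STEAP2 fell. PSCA did not pass the test. A gene passed at a Benjamini-Hochberg adjusted p below 0.05 from edgeR's quasi-likelihood test over all 15555 genes tested. STEAP4 entered the test only through its DHT libraries, and MSMB also needed DHT libraries to enter. Their calls with DHT are therefore no support, and their counts are given as a description. By the adjusted threshold 8 of 9 passed at 24 h (7 of 8 without STEAP4, MSMB among the 7), beside 50.0% of all genes tested in either direction. At 4 h 2 of 9 passed (1 of 8 without STEAP4), beside 6.77% of all genes. With the study's thresholds of more than 2-fold and an unadjusted p below 0.05, 4 rose, STEAP4 and MSMB among them, and 0 fell at 24 h, beside 5.86% of all genes.

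SLC45A3 measured 46.6 and 50.7 CPM in the vehicle libraries, 180 and 186 CPM after 4 h of DHT and 262 and 263 CPM after 24 h. The 3 conditions did not overlap, and replicates lay close together. The rise was 3.77-fold at 4 h (log2 fold change 1.91 ± 0.05 SE, adjusted p = 1.24e-11) and 5.41-fold at 24 h (log2 fold change 2.44 ± 0.05 SE, adjusted p = 6.54e-13). The step from 4 h to 24 h was itself past the threshold (log2 difference 0.52 ± 0.04 SE, adjusted p = 4.22e-07).

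STEAP4 was nearly undetected without DHT: 2 and 1 counts were found in the vehicle libraries. DHT libraries held 46 and 45 counts at 4 h and 182 and 126 counts at 24 h, all above every library without DHT. Per total count, the pooled ratio to vehicle was 28.1 at 4 h (95% exact interval 9.30 to 139) and 105 at 24 h (35.6 to 512), where the intervals cover counting error only. At its highest the gene reached 3.33 CPM, so a large ratio here stands on a low level.

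AZGP1 showed a later response than SLC45A3. Its vehicle libraries measured 17.97 and 19.8 CPM and the 4 h DHT libraries 19.0 and 19.7 CPM, within the vehicle range. At 24 h the values were 37.9 and 39.4 CPM, above all other libraries. This was a 2.06-fold rise (log2 fold change 1.04 ± 0.06 SE, adjusted p = 1.13e-08), against a log2 fold change of 0.04 ± 0.06 SE at 4 h (adjusted p = 0.756).

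MSMB, also secreted, had 12 and 13 counts in vehicle, 16 and 8 counts after 4 h of DHT, and 39 and 31 counts after 24 h. The 4 h libraries overlapped with vehicle and the 24 h libraries did not. The 24 h rise was 2.95-fold in the fit (log2 fold change 1.56 ± 0.34 SE, adjusted p = 0.00175), and the pooled count ratio was 2.86 (95% exact interval 1.79 to 4.72). MSMB needed DHT libraries to enter the test, so this call is no support.

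FOLH1 fell after 24 h of DHT. It measured 1947 and 1859 CPM in vehicle, 1850 and 1855 CPM after 4 h and 1191 and 1153 CPM after 24 h. The 24 h libraries were the lowest of the experiment and stood at 61.6% of the vehicle level (log2 fold change -0.70 ± 0.03 SE, adjusted p = 6.67e-10). At 4 h the log2 fold change was -0.04 ± 0.03 SE (adjusted p = 0.517).

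ACPP followed the same course, with 200.4 and 208 CPM in vehicle, 189 and 185 CPM at 4 h and 128 and 125 CPM at 24 h. The 24 h level was 61.9% of vehicle (log2 fold change -0.69 ± 0.04 SE, adjusted p = 7.93e-09). The 4 h values were below both vehicle libraries but did not pass (log2 fold change -0.13 ± 0.04 SE, adjusted p = 0.0562). Without ENZ 4 h replicate 1 or 2 in the shared fit, the adjusted p at 4 h was 0.0215 or 0.0255, and with all vehicle columns as separate libraries it was 0.0245.

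The neighbours STEAP1 and STEAP2 differed in the size of their change. STEAP2 measured 1615 and 1443 CPM in vehicle, 1744 and 1728 CPM at 4 h of DHT and 1186 and 1123 CPM at 24 h. It stood highest at 4 h and lowest at 24 h, and the 24 h fall to 75.5% of vehicle passed (log2 fold change -0.41 ± 0.06 SE, adjusted p = 6.14e-05). The 4 h value did not pass with all libraries (log2 fold change 0.18 ± 0.06 SE, adjusted p = 0.0848), but it did without vehicle replicate 1 (adjusted p = 0.0301) and without ENZ 4 h replicate 1 (0.0084) or 2 (0.00782).

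STEAP1 stayed nearer its vehicle level. Vehicle libraries held 349 and 324 CPM, the 4 h DHT libraries 353 and 356 CPM and the 24 h DHT libraries 320 and 306 CPM. At 24 h it stood at 92.9% of vehicle (log2 fold change -0.11 ± 0.04 SE, adjusted p = 0.0384). That call was lost without vehicle replicate 1 (adjusted p = 0.379), DHT 24 h replicate 2 (0.224), either DHT 4 h library (0.0655 each) or either ENZ 24 h library (0.0611 and 0.0608). The ratio of STEAP2 to STEAP1 CPM, which is not corrected for length, was 4.62 and 4.45 in vehicle, 3.70 and 3.68 after 24 h of DHT and 5.92 and 5.94 after 24 h of ENZ.

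PSCA was low, with 1.98 and 1.90 CPM in vehicle, 1.89 and 1.65 CPM at 4 h of DHT and 2.07 and 2.34 CPM at 24 h. The 24 h libraries lay above vehicle, but the difference did not pass (log2 fold change 0.17 ± 0.15 SE, adjusted p = 0.381).

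Between 4 h and 24 h of DHT, 4 of the 9 genes rose and 4 fell, beside 49.8% of all genes tested, and PSCA did not pass. STEAP4 and MSMB, among the 4 that rose, needed DHT libraries to enter the test, so their calls are no support. The 4 h and 24 h libraries carry different column prefixes, so time and prefix cannot be told apart.

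A list of 20 further secretory and luminal prostate genes gives the setting. Of the 15 tested, 12 rose and 2 fell after 24 h of DHT, beside 50.0% of all genes that passed, with a median log2 fold change of 1.26, against 0.001 over all genes tested and 0.17 over the 9 genes. ORM1 (log2 fold change 7.31), the kallikreins KLK2 (4.23) and KLK3 (3.04), which encode prostate proteases, and the cation channel TRPM8 (3.62) had the highest values. ORM1, counted among the 12, measured 0.0165 and 0.0254 CPM in vehicle and at most 0.165 CPM with ENZ. It entered the test only through its DHT libraries, so its call is no support. Of 14 other genes for surface antigens studied in carcinomas, 6 rose and 3 fell, beside the 50.0% of all genes that passed, with a median of -0.03. The bombesin receptor GRPR (1.97) rose, and CD38 (-1.07) and ERBB2 (-0.54) fell. Markers of other cell types also moved after 24 h of DHT, with log2 fold changes of -0.65 for COL1A1, -0.37 for VIM, -0.48 for ENO2 and 0.40 for VWF, all past the threshold. KRT14 measured 0.0165 and 0.0508 CPM in vehicle and 0.329 and 0.408 CPM after 24 h of DHT. The part of these markers in the changes of the 9 genes was not tested.

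With 10 μM ENZ in the ligand experiment, none of the 9 passed both 2-fold and the adjusted threshold. At 4 h, 0 rose and 2 fell, beside 13.6% of all genes tested. At 24 h, 2 rose and 2 fell, beside 33.4% of all genes. With the study's thresholds 1 gene, MSMB, was past at 24 h, beside 2.89% of all genes.

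SLC45A3, at 46.6 and 50.7 CPM in vehicle, measured 34.1 and 32.1 CPM after 4 h of ENZ and 42.7 and 42.1 CPM after 24 h. All 4 ENZ libraries were below both vehicle libraries, the 4 h ones further than the 24 h ones. The fall was to 68.2% of vehicle at 4 h (log2 fold change -0.55 ± 0.05 SE, adjusted p = 1.63e-05) and to 87.4% at 24 h (log2 fold change -0.19 ± 0.05 SE, adjusted p = 0.00723). The 24 h call was lost without vehicle replicate 2 (adjusted p = 0.0581) or ENZ 24 h replicate 2 (0.0516). The difference between the 2 times passed (log2 difference 0.36 ± 0.05 SE, adjusted p = 0.000185).

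STEAP2 moved the other way. Its ENZ libraries measured 1544 and 1761 CPM at 4 h, overlapping with vehicle (adjusted p = 0.233, and 0.00993 without ENZ 4 h replicate 1), and 2097 and 2155 CPM at 24 h, above every other library. The 24 h rise was 1.39-fold (log2 fold change 0.48 ± 0.06 SE, adjusted p = 3.31e-05). FOLH1 rose 1.11-fold at 24 h, with 2118 and 2120 CPM (log2 fold change 0.16 ± 0.03 SE, adjusted p = 0.00103), and its 4 h libraries, at 1887 and 1918 CPM, lay within the vehicle range.

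STEAP1 fell at 4 h of ENZ, where its 300 and 306 CPM lay below both vehicle libraries (log2 fold change -0.15 ± 0.04 SE, adjusted p = 0.0217). This call was lost without vehicle replicate 1 (adjusted p = 0.168). At 24 h it measured 354 and 363 CPM (log2 fold change 0.09 ± 0.04 SE, adjusted p = 0.0982), and passed only without vehicle replicate 1 (adjusted p = 0.0369). From 4 h to 24 h of ENZ, FOLH1, SLC45A3, STEAP1 and STEAP2 all rose and 0 fell, beside 24.6% of all genes tested. The libraries of the 2 times carry different column prefixes. Among the 3 vehicle columns of replicate 1, which differ in prefix, SLC45A3 ranged from 45.6 to 48.1 CPM, STEAP1 from 347.6 to 357.2 CPM, STEAP2 from 1619 to 1641 CPM and FOLH1 from 1927 to 1993 CPM. These columns share a replicate number and may be 1 library. In that case their ranges hold no difference in culture or preparation between prefixes. With all vehicle columns as separate libraries, ACPP fell between the 2 times (adjusted p = 0.0448).

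ACPP measured 203 and 194 CPM at 4 h of ENZ and 186.2 and 185.7 CPM at 24 h, where it fell (log2 fold change -0.13 ± 0.04 SE, adjusted p = 0.0121). The call was lost without vehicle replicate 2 (adjusted p = 0.0718) or ENZ 24 h replicate 1 (0.052) or 2 (0.0653). AZGP1 stayed between 17.8 and 19.7 CPM in the 4 ENZ libraries, and neither time passed. MSMB had 5 and 6 counts after 24 h of ENZ, below both vehicle libraries, with a pooled count ratio of 0.439 (95% exact interval 0.195 to 0.926), while the fit did not pass (log2 fold change -1.18 ± 0.49 SE, adjusted p = 0.0822). STEAP4 held 1 and 6 counts at 4 h and 1 and 2 counts at 24 h, too few to show a fall from the 2 and 1 counts of vehicle.

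Of the 15 secretory and luminal genes tested, 2 rose and 7 fell after 24 h of ENZ, beside 33.4% of all genes that passed, with a median log2 fold change of -0.23 against 0.015 over all genes. TRPM8 (-1.87), KLK2 (-1.81) and KLK3 (-1.22) fell the most, and LTF (1.03), which encodes lactoferrin, rose. VWF, an endothelial marker, fell by 0.87 on the log2 scale, and its part was not tested. Among the 14 other surface antigens 2 rose and 3 fell, near the 33.4% of all genes that passed, with F3 (1.21), GRPR (-1.29), TMEFF2 (-0.42) and CD276 (-0.22) as those of largest size. Both times of DHT and of ENZ were compared with the same 2 vehicle libraries, so their values are given side by side. The treatment time of these vehicle libraries is not given. For FOLH1 the 24 h log2 fold changes were -0.70 with DHT and 0.16 with ENZ, for STEAP2 -0.41 and 0.48, for SLC45A3 2.44 and -0.19, and for ACPP -0.69 and -0.13.

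**Figure D2:**
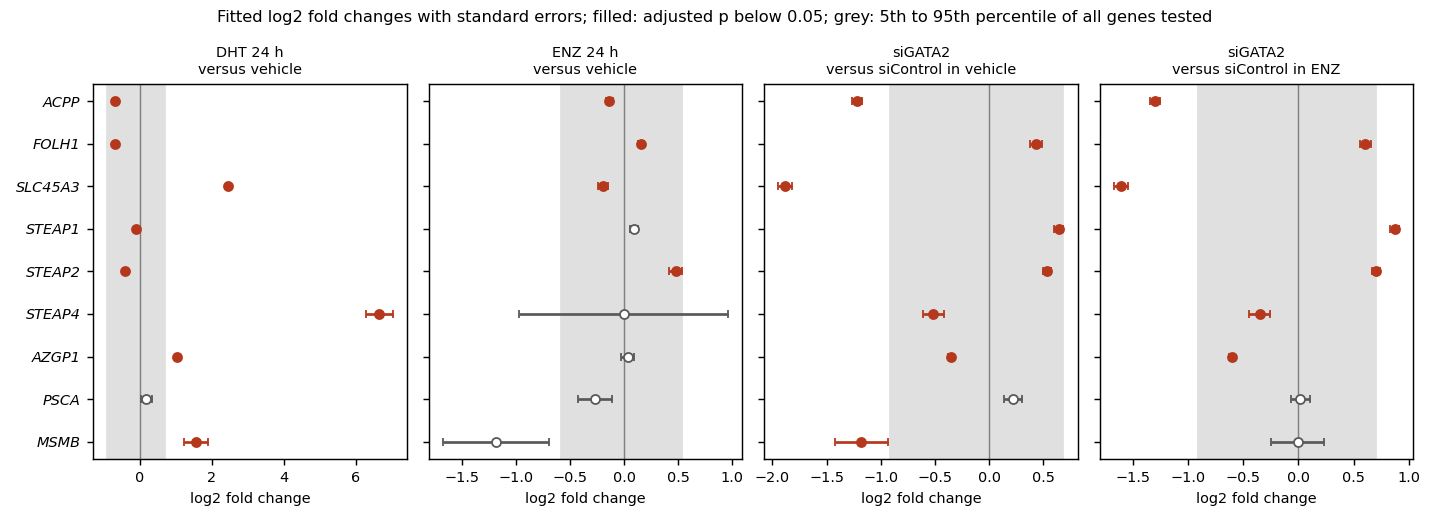
Fitted log2 fold change of each gene (point) with its standard error (bar) in 4 comparisons, where filled points passed at an adjusted p below 0.05 and the grey band spans the 5th to 95th percentile of all genes tested. SLC45A3 lay outside the band to the right with 24 h of DHT (2.44) and to the left in both siGATA2 comparisons (-1.88 and -1.61), while FOLH1, STEAP1 and STEAP2 lay to the right of 0 in both siGATA2 comparisons. These 3 genes were within the band in vehicle, and under ENZ only STEAP1 (0.87) was outside it. With 24 h of DHT, ACPP, FOLH1, STEAP1 and STEAP2 fell within the band. The horizontal scales differ between panels, and the siRNA panels are on the log2(RPKM + 0.1) scale.

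Levels between genes can be set side by side in the siRNA experiment, where values are RPKM, which are scaled by library size and gene length. In siControl cells with vehicle, FOLH1 was the highest of the 9 (143 to 153 RPKM, rank 257 of 23028 genes), followed by STEAP1 (118 to 124 RPKM) and STEAP2 (116 to 124 RPKM). The ranges of STEAP1 and STEAP2 overlapped, and no other neighbours in the order did. SLC45A3 (58.1 to 64.9 RPKM), AZGP1 (40.6 to 41.1 RPKM), ACPP (16.3 to 17.0 RPKM), PSCA (6.64 to 7.55 RPKM), MSMB (2.37 to 3.59 RPKM) and STEAP4 (0.0484 to 0.0963 RPKM) followed in this order.

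**Figure D3:**
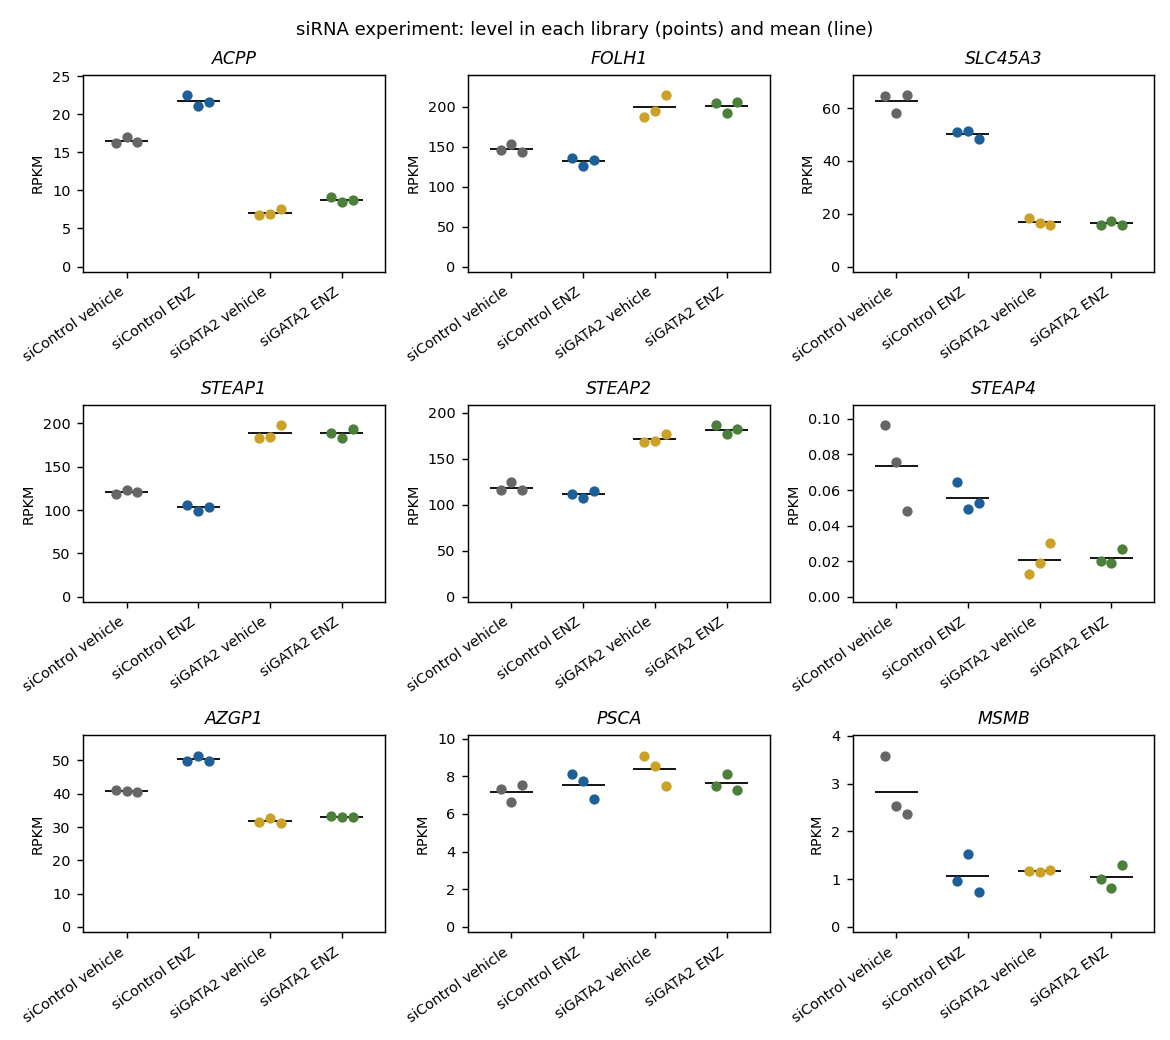
Level of each of the 9 genes in the siRNA experiment, in RPKM on a linear axis for each gene, with 1 point per library, 3 libraries per condition and a line at the mean. ACPP, SLC45A3, STEAP4 and AZGP1 were lower in all 6 siGATA2 libraries than in any siControl library, and FOLH1, STEAP1 and STEAP2 were higher in all 6.

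GATA2 siRNA split the 9 genes. In vehicle, ACPP, SLC45A3, STEAP4, AZGP1 and MSMB fell in siGATA2 cells, and FOLH1, STEAP1 and STEAP2 rose, by limma on log2(RPKM + 0.1) with Benjamini-Hochberg adjustment over 20369 genes. That is 8 of 9, beside 55.6% of all genes tested. Under ENZ 3 rose and 4 fell, beside 54.5% of all genes. With the study's thresholds, 3 fell and 0 rose in vehicle, beside 5.64% of all genes.

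SLC45A3 measured 64.5, 58.1 and 64.9 RPKM in siControl cells with vehicle, and 18.3, 16.7 and 15.7 RPKM in siGATA2 cells. The groups lay far apart. The siGATA2 level was 27.1% of control (log2 difference -1.88 ± 0.06 SE, adjusted p = 2.72e-09). Under ENZ the values were 50.9, 51.2 and 48.2 RPKM in siControl cells and 15.9, 17.4 and 15.8 RPKM in siGATA2 cells (log2 difference -1.61 ± 0.06 SE, adjusted p = 8.14e-09).

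ACPP, the phosphatase, also fell. It measured 16.3, 17.0 and 16.4 RPKM in siControl cells with vehicle and 6.77, 6.86 and 7.53 RPKM in siGATA2 cells, with no overlap. This was 43.0% of control (log2 difference -1.22 ± 0.04 SE, adjusted p = 4.60e-09). Under ENZ it was 40.7% of control, with 22.5, 21.1 and 21.6 RPKM in siControl cells against 9.08, 8.46 and 8.80 RPKM in siGATA2 cells (log2 difference -1.30 ± 0.04 SE, adjusted p = 2.98e-09).

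AZGP1 fell less, from 41.1, 40.7 and 40.6 RPKM to 31.5, 32.8 and 31.3 RPKM in vehicle. Replicates were tight and did not overlap (log2 difference -0.36 ± 0.02 SE, adjusted p = 2.05e-07). Under ENZ it stood at 49.8, 51.5 and 50.0 RPKM in siControl cells and 33.2, 32.9 and 33.02 RPKM in siGATA2 cells (log2 difference -0.61 ± 0.02 SE, adjusted p = 4.59e-09).

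MSMB measured 3.59, 2.53 and 2.37 RPKM in siControl cells with vehicle and 1.18, 1.15 and 1.19 RPKM in siGATA2 cells. The groups did not overlap, though the siControl libraries were spread (log2 difference -1.18 ± 0.24 SE, adjusted p = 0.00171). Under ENZ the groups overlapped, at 0.955, 1.53 and 0.731 RPKM against 1.00, 0.815 and 1.30 RPKM (log2 difference -0.01 ± 0.24 SE, adjusted p = 0.992).

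STEAP4 stood at 0.0963, 0.0757 and 0.0484 RPKM in siControl cells with vehicle and 0.0128, 0.0191 and 0.0300 RPKM in siGATA2 cells. The steps between weak RPKM values returned whole reads (within 0.1 of a whole number), with 31, 24 and 13 reads in siControl cells and 4, 6 and 10 reads in siGATA2 cells. The pooled ratio per depth was 0.278 (95% exact interval 0.160 to 0.463, counting error only). The log2 difference of -0.52 ± 0.10 SE (adjusted p = 0.000865) is held down by the added 0.1 RPKM, and was -1.44 with 0.01 added.

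The 3 genes that rose were the surface proteins of highest level. STEAP1 went from 118, 124 and 121 RPKM to 184, 185 and 198 RPKM in vehicle, with no overlap, a 1.56-fold rise (log2 difference 0.64 ± 0.04 SE, adjusted p = 1.69e-07). STEAP2 went from 116, 124 and 116 RPKM to 169, 169 and 177 RPKM (log2 difference 0.53 ± 0.04 SE, adjusted p = 7.02e-07). FOLH1 went from 146, 153 and 143 RPKM to 188, 195 and 214 RPKM (log2 difference 0.43 ± 0.05 SE, adjusted p = 4.18e-05).

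Under ENZ the same 3 genes were again higher in siGATA2 cells, with log2 differences of 0.87 ± 0.04 SE for STEAP1 (adjusted p = 1.90e-08), 0.70 ± 0.04 SE for STEAP2 (adjusted p = 9.11e-08) and 0.61 ± 0.05 SE for FOLH1 (adjusted p = 3.04e-06). The vehicle and ENZ comparisons use separate libraries of each siRNA. In siGATA2 cells FOLH1 (188 to 214 RPKM) and STEAP1 (184 to 198 RPKM) overlapped in level.

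PSCA had 7.32, 6.64 and 7.55 RPKM in siControl cells and 9.11, 8.56 and 7.47 RPKM in siGATA2 cells with vehicle. The groups overlapped, and the difference lay at the threshold (log2 difference 0.22 ± 0.09 SE, adjusted p = 0.0523). It passed without siGATA2 vehicle replicate 3 (adjusted p = 0.012), without siControl ENZ replicate 3 (0.034) and under quantile normalization (0.0124). Under ENZ the log2 difference was 0.01 ± 0.09 SE (adjusted p = 0.914).

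Among 19 secretory and luminal genes tested, 1 rose and 11 fell in siGATA2 cells with vehicle, beside 55.6% of all genes that passed, with a median log2 difference of -0.35 against -0.03 over all genes and -0.36 over the 9 genes. KLK2 (-5.60), KLK3 (-5.04) and CRISP3 (-2.69) were among those that fell. Of the 15 other surface antigens, 8 rose and 5 fell, beside the same 55.6%. TMEFF2 (-1.42) fell, and CD38 (1.05) and ERBB2 (1.02) rose. CD38 was weak, at 0.0152 to 0.0324 RPKM in siControl cells and 0.143 to 0.164 RPKM in siGATA2 cells with vehicle. Of 16 tested paralogs, neighbours and overlapping genes of the 9, 5 rose and 5 fell, beside the same share. STEAP3, another metalloreductase of the STEAP family, fell by 1.31 on the log2 scale, and SLC45A1, a solute carrier related to SLC45A3, rose by 1.45. Markers of other cell types moved in siGATA2 cells too, with log2 differences of -0.82 for VIM, 0.74 for ENO2, 0.54 for COL1A1, 0.35 for VWF, -0.68 for KRT14 and 0.61 for KRT15, all past the threshold, and their part was not tested. KRT14 and KRT15 reached at most 0.113 and 0.111 RPKM in the siRNA experiment, so their values depend on the added 0.1 RPKM.

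ENZ at 25 μM in siControl cells changed 6 of the 9, beside 42.1% of all genes tested. ACPP and AZGP1 rose, and FOLH1, SLC45A3, STEAP1 and MSMB fell. In siGATA2 cells only ACPP passed, beside 0.412% of all genes tested.

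ACPP rose from 16.3, 17.0 and 16.4 RPKM to 22.5, 21.1 and 21.6 RPKM in siControl cells (log2 fold change 0.39 ± 0.04 SE, adjusted p = 4.92e-05), and from 6.77, 6.86 and 7.53 RPKM to 9.08, 8.46 and 8.80 RPKM in siGATA2 cells (log2 fold change 0.31 ± 0.04 SE, adjusted p = 0.0164). In neither did the groups overlap. The call in siGATA2 cells was lost without siGATA2 ENZ replicate 1 (adjusted p = 0.0896) or 3 (0.075) and without siGATA2 vehicle replicate 1 (0.0666) or 2 (0.0868). The 2 responses did not differ past the threshold (interaction -0.08 ± 0.06 SE, adjusted p = 0.402).

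AZGP1 rose to 49.8, 51.5 and 50.0 RPKM in siControl cells (log2 fold change 0.30 ± 0.02 SE, adjusted p = 2.33e-06), with every ENZ library above every vehicle library. In siGATA2 cells the log2 fold change was 0.05 ± 0.02 SE (adjusted p = 0.434). The interaction was -0.25 ± 0.03 SE (adjusted p = 0.000269).

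MSMB fell to 39.0% of vehicle in siControl cells (log2 fold change -1.36 ± 0.24 SE, adjusted p = 0.00113). It held 125, 87 and 69 whole reads in vehicle and 32, 47 and 27 in ENZ, a pooled ratio per depth of 0.366 (95% exact interval 0.290 to 0.460). In siGATA2 cells the log2 fold change was -0.18 ± 0.24 SE (adjusted p = 0.865), starting from a vehicle level already within the range of the siControl ENZ libraries. The interaction was 1.17 ± 0.34 SE (adjusted p = 0.0297), and it did not pass without replicate 1 or 3 of siGATA2 ENZ or of siControl ENZ, replicate 1 or 2 of siGATA2 vehicle or replicate 1 of siControl vehicle (adjusted p = 0.0558 to 0.0696).

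SLC45A3 fell to 80.2% of vehicle in siControl cells (log2 fold change -0.32 ± 0.06 SE, adjusted p = 0.00207), and STEAP1 to 85.3% (log2 fold change -0.23 ± 0.04 SE, adjusted p = 0.000730). FOLH1 fell to 89.3% of vehicle (log2 fold change -0.16 ± 0.05 SE, adjusted p = 0.0299), a call that was lost without siControl vehicle replicate 1 (adjusted p = 0.0573) or 2 (0.0973) and without siControl ENZ replicate 2 (0.110) or 3 (0.0537). STEAP2 had a log2 fold change of -0.08 ± 0.04 SE (adjusted p = 0.108), PSCA of 0.07 ± 0.09 SE (adjusted p = 0.55) and STEAP4 of -0.15 ± 0.10 SE (adjusted p = 0.252). STEAP4 passed without siControl vehicle replicate 3 (adjusted p = 0.0298).

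The difference between the 2 ENZ responses passed for 5 of the 9 genes, beside 25.8% of all genes tested. With the replicate number as a block, 2 of the 9 passed, STEAP1 and AZGP1, and SLC45A3 (adjusted p = 0.0628), STEAP2 (0.0814) and MSMB (0.0557) did not. Without the block the difference was 0.23 ± 0.05 SE for STEAP1 (adjusted p = 0.0109), 0.27 ± 0.09 SE for SLC45A3 (adjusted p = 0.0475) and 0.17 ± 0.05 SE for STEAP2 (adjusted p = 0.0472), in addition to AZGP1 and MSMB. The call of SLC45A3 was lost when any 1 of 10 of the 12 libraries was left out (adjusted p = 0.0572 to 0.1) and was kept without siGATA2 vehicle replicate 1 or siControl vehicle replicate 2. That of STEAP2 was lost in 8 of the 12 such fits (adjusted p = 0.0514 to 0.110) and was kept without siGATA2 ENZ replicate 2 or replicate 3 of siGATA2 vehicle, siControl vehicle or siControl ENZ. Those of STEAP1 and AZGP1 were kept in every such fit. FOLH1 (0.18 ± 0.07 SE, adjusted p = 0.115) passed without siGATA2 vehicle replicate 3 (adjusted p = 0.0217). GATA2 itself had a log2 fold change with ENZ of 0.65 ± 0.06 SE in siControl cells and 0.27 ± 0.06 SE in siGATA2 cells (interaction -0.38 ± 0.08 SE, adjusted p = 0.00823), and its part in these differences was not tested.

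**Figure D4:**
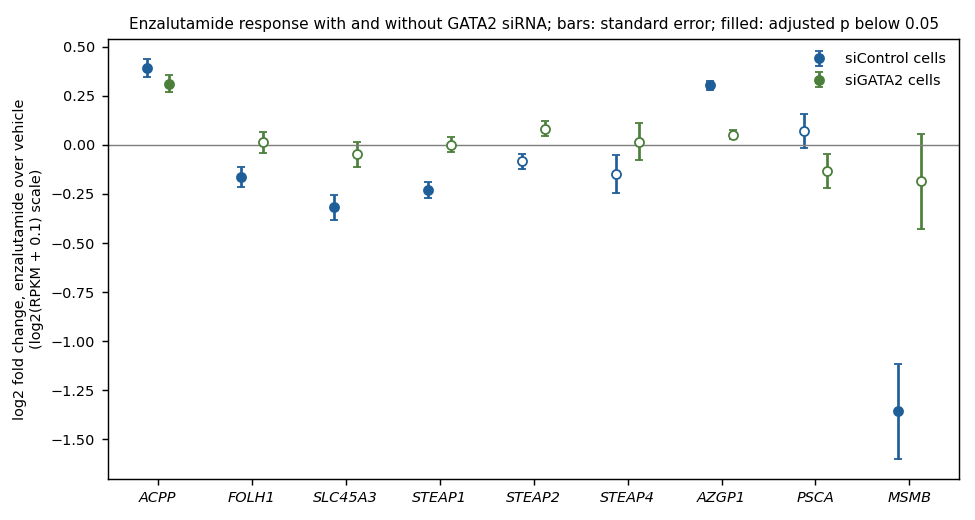
Log2 fold change of ENZ over vehicle on the log2(RPKM + 0.1) scale, with standard errors, in siControl cells (blue) and siGATA2 cells (green), where filled points passed at an adjusted p below 0.05. ACPP sat above 0 in both, while SLC45A3, STEAP1, AZGP1 and MSMB lay nearer 0 in siGATA2 cells.

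The ENZ doses of the experiments differ, and values are set side by side only. After 24 h, ACPP had log2 fold changes of -0.13 at 10 μM and 0.39 at 25 μM in siControl cells, AZGP1 of 0.04 and 0.30, FOLH1 of 0.16 and -0.16, STEAP2 of 0.48 and -0.08, SLC45A3 of -0.19 and -0.32, and MSMB of -1.18 and -1.36. Dose, transfection, time in culture, sequencer and sequencing site cannot be told apart between the experiments.

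Across the 9 condition means, centred within each experiment, the genes most like each member were found among 11645 genes, as a description for 7 of the 9, since STEAP4 and MSMB were below the level set for this measure. FOLH1 and STEAP2 resembled each other (Pearson r = 0.944), and FOLH1 and AZGP1 ran opposite (r = -0.956). STEAP1 and STEAP2 had r = 0.79, and ACPP and STEAP1 r = -0.838. The most alike genes were STXBP5L for FOLH1 (r = 0.994), PDCD4 for STEAP1 (r = 0.991), DEGS1 for SLC45A3 (r = 0.990), POLI for STEAP2 (r = 0.987), PER3 for ACPP (r = 0.985), KREMEN2 for AZGP1 (r = 0.976) and AGAP3 for PSCA (r = 0.940). These 9 points share libraries and controls, and no test was made of them.

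Shared sequence limits some of these values. Of all windows of 50 bases in FOLH1 transcripts, 28.1% also occur in transcripts of its near-identical copy FOLH1B, and 21.4% of those of STEAP1 occur in STEAP1B. Per length the copies were far lower, with FOLH1B at 0.358 to 0.446 RPKM and STEAP1B at 0.153 to 0.292 RPKM in siControl cells with vehicle. STEAP1B fell by 0.86 on the log2 scale in siGATA2 cells with vehicle (SE 0.18, adjusted p = 0.00167), where STEAP1 rose. After 24 h of DHT, FOLH1B fell as FOLH1 did (log2 fold change -0.56 ± 0.12 SE, adjusted p = 0.00172 in edgeR's test). Whether reads of a gene were counted for its copy was not tested. For PSCA, 13.1% of windows lie opposite to the overlapping gene JRK, and for STEAP4 4.9% lie opposite to AC003991.1. The libraries were directional, but whether strand was used in counting is not given in the sources used here, so reads of these partners may not be told apart. STEAP2-AS1 overlaps both STEAP1 and STEAP2 and was at 0.0814 to 0.184 RPKM in siControl cells with vehicle.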

How the data were processed

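RNA-seq of LNCaP cells was analysed from 24 samples. The authors aligned reads to hg19 with TopHat2 2.0 and quantified genes with Partek Genomics Suite; the annotation is not given in the sources used here. For the ligand experiment they deposited estimated counts per gene without normalization, which were rounded here. For the siRNA experiment they deposited RPKM values, scaled by library size and gene length, whose small steps gave an approximate depth of 58800000 to 76800000 reads. Vehicle columns with replicate number 1 were summed, giving 10 ligand libraries.

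Counts were tested with edgeR 4.0.16 (R 4.3.3; quasi-likelihood, TMM, filterByExpr) in 1 model of 5 conditions, and log2(RPKM + 0.1) with limma 3.58.1 (trend; genes above 0 in at least 3 libraries) in 1 model of 4 conditions. P-values were adjusted over all genes tested. CPM values are TMM-scaled. Scripts were tested on simulated data. Alternatives were other filters, scalings, pseudocounts, DESeq2 1.42.0, a replicate block and leaving out libraries.

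The 9 genes and all gene lists were chosen with earlier results of these data known. From each list at most 4 genes are named per comparison, those that passed with the largest absolute log2 fold change. Some genes that this rule would name are not reported here. FOLH1B, STEAP1B and STEAP2-AS1, members of the list of paralogs and neighbours, were named outside this rule because they share sequence with the 9 genes. Same-numbered samples were compared by the correlation of their deviations from group means. It was -0.204 to 0.179 in the ligand experiment. In the siRNA experiment all 3 pairs exceeded 0.1 only between siControl ENZ and siGATA2 ENZ (0.113, 0.241 and 0.148).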

Additional observations from a re-analysis of the deposited data

Results flagged for a closer look

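Values are given here where the response of a gene differed between 2 times or between the 2 siRNAs by a test of the difference itself (edgeR or limma, adjusted p below 0.05). No explanation was weighed.

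From 4 h to 24 h of DHT, the log2 level changed by 1.94 for STEAP4, 1.72 for MSMB, 1.0 for AZGP1 and 0.52 for SLC45A3, all upward. It changed by -0.66 for FOLH1, -0.59 for STEAP2, -0.56 for ACPP and -0.18 for STEAP1. These 8 differences stood beside 49.8% of all genes tested. STEAP4 and MSMB needed DHT libraries to enter the test, so their calls are no support. The DHT libraries of 4 h and 24 h carry different column prefixes, so time and prefix cannot be told apart. STEAP1 and STEAP2 lay above both vehicle libraries at 4 h and below both at 24 h.

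From 4 h to 24 h of ENZ, SLC45A3 and STEAP2 each rose by 0.36 on the log2 scale, STEAP1 by 0.24 and FOLH1 by 0.16. These differences stood beside 24.6% of all genes tested. The ENZ libraries of the 2 times carry different column prefixes, so time and prefix cannot be told apart.

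The log2 response to ENZ was higher in siGATA2 than in siControl cells by 1.17 for MSMB, 0.27 for SLC45A3, 0.23 for STEAP1 and 0.17 for STEAP2, and it differed by -0.25 for AZGP1. These differences stood beside 25.8% of all genes tested. Over all genes, ENZ passed for 42.1% in siControl cells and 0.412% in siGATA2 cells. Leaving out 1 of the 12 libraries ended the call of SLC45A3 in 10 fits, of STEAP2 in 8 and of MSMB in 7. The replicate block ended these 3 calls too. For MSMB, SLC45A3, STEAP1 and AZGP1 the response in siGATA2 cells was nearer 0 than in siControl cells. For STEAP2 the responses were -0.08 in siControl cells and 0.08 in siGATA2 cells, neither past the threshold.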

How the results depend on the processing

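Of 1815 values of single genes under the alternatives, 1707 kept their direction and their side of the threshold, 56 lost the call, 21 gained it and 31 changed sign. None of those 31 was past the threshold with the main settings or with the alternative. Leaving out 1 library at a time, the number of the 9 genes past the threshold was 2 to 4 for DHT 4 h, 7 to 8 for DHT 24 h, 1 to 3 for ENZ 4 h, 2 to 5 for ENZ 24 h, 8 to 8 between the DHT times, 4 to 5 between the ENZ times, 5 to 7 for ENZ in siControl cells, 0 to 1 for ENZ in siGATA2 cells, 8 to 9 for siGATA2 in vehicle, 7 to 7 for siGATA2 under ENZ and 2 to 5 for the interaction. It was 4 for DHT 4 h without either ENZ 4 h library, 1 for ENZ 4 h without vehicle replicate 1, and 2 for ENZ 24 h without vehicle replicate 2 or ENZ 24 h replicate 2.

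The interaction count of 5 became 3 with no filter on low values and 3 with limma without trend. With the replicate block it was 2 for the interaction and 0 for ENZ in siGATA2 cells. All 3 same-numbered pairs correlated above 0.1 only between siControl ENZ and siGATA2 ENZ, and in that comparison the block changed no call of the 9 genes. In the other comparisons, which include groups whose numbers did not pair, it ended the calls of STEAP1 at 24 h of DHT (adjusted p = 0.0509), of ACPP for ENZ in siGATA2 cells (0.0533) and of the interaction, which includes the 2 ENZ groups, for SLC45A3 (0.0628), STEAP2 (0.0814) and MSMB (0.0557), and made that of PSCA for siGATA2 in vehicle (0.0459). The cause of these changes was not tested.

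For FOLH1 at 4 h of ENZ the log2 fold change was 0.016 with the ZC1 vehicle column alone, 0.00028 with the replicate block and -0.037 to 0.029 leaving out libraries. For STEAP4 at 24 h of ENZ it was 0.78 with that column alone and -0.56 to 0.39 leaving out libraries. For MSMB with siGATA2 under ENZ it was 0.10 with quantile normalization and -0.23 to 0.26 leaving out libraries. The sign also changed on leaving out libraries for AZGP1 (-0.027 to 0.11) and MSMB (-0.75 to 0.26) at 4 h of DHT, STEAP4 at 4 h of ENZ (-0.32 to 1.93) and between the ENZ times (-1.94 to 0.31), and AZGP1 at 24 h of ENZ (-0.049 to 0.090). In siGATA2 cells with ENZ it changed for FOLH1 (-0.028 to 0.068), SLC45A3 (-0.098 to 0.011), STEAP1 (-0.020 to 0.035) and STEAP4 (-0.031 to 0.072), and for PSCA with siGATA2 under ENZ (-0.060 to 0.068). STEAP2 also passed at 4 h of DHT and of ENZ with no filter on low counts. Depth limits STEAP4 and MSMB, which had few counts in most libraries.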

Other observations

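STEAP4 and MSMB, the 2 genes of lowest level, had different basal levels in the 2 experiments. In siControl cells with vehicle, recovered reads gave 0.221 to 0.441 reads per 1000000 for STEAP4 and 1.17 to 1.78 for MSMB. In vehicle cells of the ligand experiment the values were 0.0254 to 0.0330 CPM and 0.198 to 0.330 CPM. The tables were normalized separately, and the siRNA values are reads recovered from RPKM. The experiments also differ in transfection, time in culture, sequencer and sequencing site, so these values were not tested against each other.

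By TMM-scaled CPM, the 9 genes together took 0.302% in the library with the lowest share, after 24 h of DHT. The highest share was 0.489%, after 24 h of ENZ. Through the scaling these are not exact shares of the estimated counts. FOLH1 and STEAP2, with vehicle means of 1903 and 1529 CPM, made up most of the sum, and STEAP1 came next at 337 CPM. The sum therefore mainly follows FOLH1 and STEAP2 and does not describe the other genes.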
